A study of Mus musculus with 20 samples.

Results

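A set of 10 genes that carry the first steps of zymosan recognition was followed across 20 RNA-seq libraries of mouse bone marrow-derived macrophages (BMDMs). They were chosen by name: Clec7a (Dectin-1), Tlr1, Tlr2, Tlr6, Cd14, Syk, Card9, Bcl10, Malt1 and Myd88. A count for 9 of the 10 was used, out of 21963 gene entries, and all 9 were among the 11707 genes tested. Clec7a was not analysed here. The cells fell into 5 groups: 4 libraries of WT untreated, 5 of WT given zymosan, 4 of WT loaded with BAPTA-AM and given zymosan, 4 of Mcu-/- untreated and 3 of Mcu-/- given zymosan. Zymosan was given for 3 h at 2 particles per cell, and BAPTA-AM, a cell-permeant Ca2+ chelator, was used at 10 µM. No group had BAPTA-AM without zymosan or BAPTA-AM in Mcu-/- cells, and no vehicle is named for the WT zymosan group. Mice of both genotypes were 15 to 25 weeks old. Mcu encodes the pore of the mitochondrial Ca2+ uniporter, and the Mcu-/- cells came from mice with floxed Mcu and a Cre driven by the Cx3cr1 promoter. Such deletion takes place only in cells that express the driver. The labels call the libraries of a group biological replicates, without saying which came from 1 mouse.

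Zymosan is a preparation of yeast cell wall, rich in β-glucan and mannan. Dectin-1 binds its β-glucan and signals through the tyrosine kinase SYK to the CARD9-BCL10-MALT1 complex, whereas TLR2, paired with TLR1 or TLR6 and helped by the co-receptor CD14, signals through the adaptor MyD88. Both routes lead to NF-κB, and SYK also acts upstream of phospholipase Cγ and the release of Ca2+ from stores.

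On mm10, with the gene models of GENCODE M21, Tlr1 (ENSMUSG00000044827, chr5:64924679-64933563, minus strand) and Tlr6 (ENSMUSG00000051498, chr5:64952031-64960097, minus strand) are neighbours, and Tlr2 (ENSMUSG00000027995, chr3:83836272-83841767, minus strand) lies on the same chromosome as Bcl10 (ENSMUSG00000028191, chr3:145922804-145934356, plus strand). Card9 (ENSMUSG00000026928, chr2:26352176-26360918, minus strand), Syk (ENSMUSG00000021457, chr13:52583173-52648792, plus strand) and Myd88 (ENSMUSG00000032508, chr9:119335934-119341411, minus strand) lie on other chromosomes. The annotation classes Clec7a (ENSMUSG00000079293, chr6:129461591-129472779, minus strand) as a polymorphic pseudogene, and 0 of its 82 genes of that class matched an entry used here, whereas 21644 of the 21963 entries matched a protein-coding gene. Of all stretches of 100 bases in their annotated transcripts, Tlr1 shared 7.89% and Tlr6 shared 7.09% with the other, so a small part of their counts could be split between them or lost. Myd88 shared 4.69% with Acaa1a, which lies on the opposite strand and whose span holds 433 of its exon bases. The span of Slc22a14, on the same strand, holds all 2576 exon bases of Myd88, though the transcripts of this pair shared no such stretch. Card9 is overlapped on the opposite strand by Gm13562. Whether reads were counted by strand is not given in the sources used here, so these 2 genes carry that uncertainty. Tlr2, Cd14, Syk, Card9 and Bcl10 shared no such stretch with another gene.

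Promoter windows, from 250 bases before to 50 after a transcript start, were taken from RefSeq (GRCm38.p6) for the 8 members that had one. Cd14 and Malt1 had none. Windows of the NF-κB consensus carriers, Tlr2 (chr3:83841559-83841858, minus strand) and Bcl10 (chr3:145924012-145924311, plus strand), are shown because both genes are compared below in every group, and that of Card9 (chr2:26360860-26361159, minus strand) because it is the partner of BCL10 that moved the other way. Each is printed 5′ to 3′ on the gene's strand, with matches to the NF-κB consensus in capitals.
Tlr2: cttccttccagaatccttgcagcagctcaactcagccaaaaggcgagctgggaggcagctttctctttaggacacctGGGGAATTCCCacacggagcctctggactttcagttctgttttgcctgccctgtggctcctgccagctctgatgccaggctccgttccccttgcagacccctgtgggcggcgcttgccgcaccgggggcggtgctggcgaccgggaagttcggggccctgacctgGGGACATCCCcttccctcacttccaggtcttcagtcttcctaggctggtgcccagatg
Bcl10: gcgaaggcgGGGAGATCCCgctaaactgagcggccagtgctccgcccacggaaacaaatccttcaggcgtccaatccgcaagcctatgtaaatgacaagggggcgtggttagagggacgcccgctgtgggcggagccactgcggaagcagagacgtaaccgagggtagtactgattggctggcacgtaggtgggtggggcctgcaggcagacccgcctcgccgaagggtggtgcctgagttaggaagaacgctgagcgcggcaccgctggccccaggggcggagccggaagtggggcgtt
Card9: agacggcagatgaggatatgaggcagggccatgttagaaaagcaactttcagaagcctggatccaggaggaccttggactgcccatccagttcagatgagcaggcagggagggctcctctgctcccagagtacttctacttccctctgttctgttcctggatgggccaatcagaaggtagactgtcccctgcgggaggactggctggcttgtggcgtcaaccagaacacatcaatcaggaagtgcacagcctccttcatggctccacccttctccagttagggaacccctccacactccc
The consensus was searched on both strands. Tlr2 held 3 matches, with first bases at −173, −172 and −8 from the start, of which the first and the second overlap and are printed as 1 run of capitals. Bcl10 held 1 match, at −241. Of 12 windows of members, 2 held a match, against 4.51% of all 32851 windows. A PU.1 core, GAGGAAGT, was in 1 window, of Tlr1, and in 3.20% of all windows. An ISRE core was in 1 window each of Myd88 and Tlr6 and in 3.44% of all windows. Myd88, Syk and Card9 held no NF-κB match in these windows, and a match describes letters, not binding.

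Libraries held 14.4 to 24.0 M counts on genes, and the lowest count of any member was 255, for Malt1. Values are CPM, a gene's counts for each M counts of its library, after scaling of library sizes with edgeR's TMM method. Mcu was at 6.10 to 9.54 CPM in the 13 WT libraries and at 2.63 to 4.05 CPM in the 7 Mcu-/- libraries, in the direction of the labels. All 6 macrophage markers (Adgre1, Cd68, Csf1r, Lyz2, Fcgr1 and Mertk) were present, with a summed level of 12383 to 14433 CPM in WT libraries, and neutrophil, T cell and erythroid markers summed to at most 5.32 CPM. Dendritic cell markers summed to 2.94 to 17.4 CPM, and B cell markers, led by Cd79b, to 13.0 to 55.8 CPM. In Mcu-/- untreated replicate 4 the macrophage markers summed to 8118 CPM, against 13401 to 13798 CPM in replicates 1 to 3, and in Mcu-/- zymosan to 8804 to 9070 CPM. The summed level of 5 stromal markers, led by the collagen genes Col1a1 and Col1a2, was 28.3 CPM in replicate 4, 1.10 to 2.81 CPM in replicates 1 to 3, 44.0 to 52.3 CPM in Mcu-/- zymosan and 2.67 to 6.63 CPM in WT, while Dcn and Pdgfra of that list stayed under 1 CPM in every group. The same replicate 4 stood apart over all genes, since its chi-square against replicates 1 to 3, averaged over genes, was 209 to 217, while every other pair of replicates was at 1.60 to 6.20. Members are therefore given with all 20 libraries and, where the call differed, without replicate 4. Whether this library differs from the others in mouse, preparation or label cannot be told apart. TMM factors were 1.15 to 1.24 in untreated and 0.838 to 0.915 in stimulated libraries, and scaling by library totals in place of TMM moves the median log2 ratio of zymosan to untreated from −0.041 to −0.49 in WT and from −0.059 to −0.54 in Mcu-/-.

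Per kilobase of exon, the members spanned a wide range in WT untreated macrophages. Cd14 led at 127 CPM per kb, followed by Syk at 55.1, Tlr1 at 47.6, Tlr2 at 41.9, Myd88 at 32.0, Card9 at 18.6, Bcl10 at 9.75, Tlr6 at 4.54 and Malt1 at 0.847. No library of one gene overlapped those of the next in this order. With zymosan the order was Cd14 (632 CPM per kb), Tlr2 (175), Syk (111), Myd88 (87.8), Tlr1 (56.8), Bcl10 (23.3), Card9 (10.1), Malt1 (7.77) and Tlr6 (4.58), again without overlap between neighbours. Tlr2 and Bcl10 thereby stood above Tlr1 and Card9, which had stood above them before. These places rest on the length used, the union of all annotated exons. With the longest coding transcript instead, Bcl10 stood just above Card9 already in untreated cells, at 22.8 against 21.9 CPM per kb, and Myd88 above Tlr2, at 42.1 against 41.9, with overlapping libraries in both pairs. After zymosan the same change of length put Syk above Tlr2, at 194 against 175 CPM per kb, and Malt1 above Card9, at 26.3 against 11.9, without overlap in either pair.

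**Figure D1:**
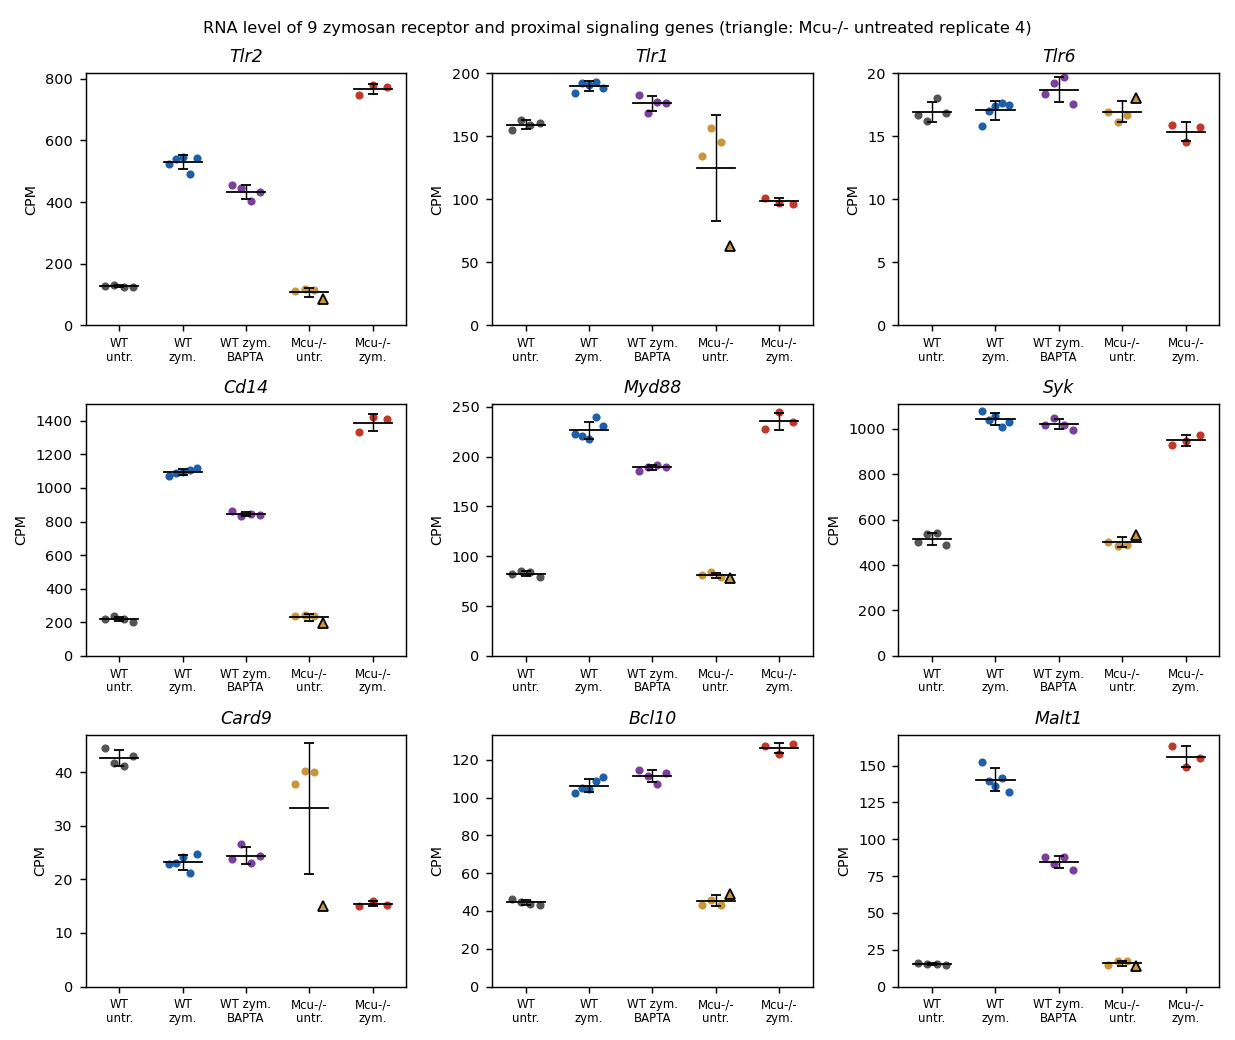
Level of each of the 9 genes in CPM (y axes, linear, from 0) in the 20 libraries, by group (x axes). Each point is 1 library, the triangle is Mcu-/- untreated replicate 4, and lines and bars are group means ± SD. Malt1, Cd14, Tlr2, Myd88, Bcl10 and Syk are higher with zymosan, Card9 is lower, and Tlr1 is lowest in Mcu-/- zymosan and in the triangle.

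In WT macrophages, zymosan was followed within 3 h by higher RNA of 6 of the 9 members, and by lower RNA of 1. Malt1 rose 9.17-fold, Cd14 5.00-fold, Tlr2 4.19-fold, Myd88 2.74-fold, Bcl10 2.39-fold and Syk 2.02-fold, while Card9 fell 1.84-fold. Tlr1 and Tlr6 were not called. Among all genes tested, 32.4% were called higher and 36.8% lower in this comparison. The members' median log2 fold change was 1.26, against −0.044 over all genes tested.

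Of the receptors, Tlr2 was at 126, 130.4, 125 and 123 CPM in the WT untreated libraries and at 525, 539.5, 548, 491 and 542 CPM with zymosan. Every stimulated library lay far above every untreated one, and the log2 fold change was 2.07 (SE 0.074, adjusted p = 7.83e-15 in edgeR). CD14, which hands ligands to TLR heterodimers, had its RNA at 217, 235, 222 and 202 CPM untreated and at 1071, 1088, 1093, 1108 and 1117 CPM with zymosan. This was a rise of the same kind, of 2.32 (SE 0.058, adjusted p = 3.46e-17 in edgeR) on the log2 scale. The partners of TLR2 did not share it. Tlr1 went from 155, 163, 159 and 161 CPM to 184, 192, 191, 194 and 189 CPM, a log2 difference of 0.25 (SE 0.16, adjusted p = 0.162 in edgeR). All 5 stimulated libraries lay above all 4 untreated ones, and without Mcu-/- untreated replicate 4 in the fit the same difference had an adjusted p of 1.60e-08, in a fit that called 37.2% of all genes higher. On library totals, however, Tlr1 was lower with zymosan, by a log2 ratio of −0.24, so its direction depends on the scaling. Tlr6, the least abundant of the receptors, was at 16.7, 16.2, 18.0 and 16.8 CPM untreated and 15.8, 17.0, 17.4, 17.7 and 17.5 CPM with zymosan, and the groups overlapped. Its log2 difference was 0.014 (SE 0.055, adjusted p = 0.840 in edgeR), with a 95% interval of −0.094 to 0.12. On library totals it was −0.48, and no stimulated library overlapped an untreated one (exact two-sided permutation p = 0.00794). The median over all genes tested was −0.49 on that scale, so Tlr6 moved about as the median gene did. The share of all genes without overlap on library totals was not taken. Whether Tlr6 was lower thus depends on the scaling too.

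Downstream of the TLRs, Myd88, the adaptor that recruits IRAK kinases, went from 81.8, 84.8, 84.1 and 79.5 CPM to 223, 221, 218, 239 and 231 CPM. The groups did not overlap, and the log2 fold change was 1.45 (SE 0.038, adjusted p = 7.17e-17 in edgeR). Downstream of Dectin-1, Syk, the kinase that docks on the phosphorylated receptor, was at 501, 536, 539 and 486 CPM untreated and at 1079, 1039.7, 1056, 1007 and 1031 CPM with zymosan, again without overlap and higher by 1.02 (SE 0.042, adjusted p = 7.64e-14 in edgeR) on the log2 scale. The 3 parts of the CARD9-BCL10-MALT1 complex moved apart. Card9, the adaptor that links SYK signaling to BCL10, fell from 44.4, 41.7, 41.2 and 43.1 CPM to 22.8, 23.0, 24.1, 21.1 and 24.7 CPM, a log2 fold change of −0.88 (SE 0.18, adjusted p = 2.65e-04 in edgeR). Bcl10, the protein that forms the filaments of the complex, rose from 46.6, 44.6, 43.7 and 43.2 CPM to 102, 105, 104, 109 and 111 CPM. Malt1, the protease of the complex, rose from 15.9, 15.5, 15.4 and 14.3 CPM to 153, 139, 136, 141 and 132 CPM, the largest change of the 9. The log2 fold changes were 1.26 (SE 0.043, adjusted p = 3.82e-15 in edgeR) for Bcl10 and 3.20 (SE 0.070, adjusted p = 4.75e-18 in edgeR) for Malt1. None of the stimulated libraries overlapped the untreated ones for these 3 genes (over all genes, 33.1% did not overlap in the higher and 36.4% in the lower direction), and the 6 rises and the fall of Card9 kept their direction on library totals. By exact two-sided permutation test, each of these 7 genes, and Tlr1, gave p = 0.00794, the lowest p that can be had from 5 and 4 libraries.

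**Figure D2:**
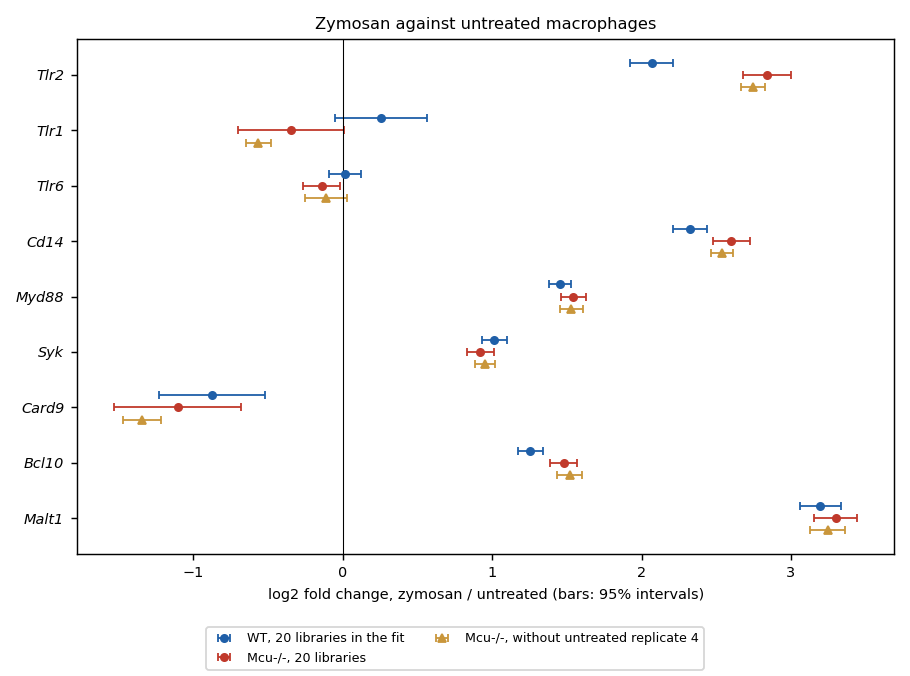
Log2 fold change of zymosan against untreated (x axis) for each gene (y axis) in WT and in Mcu-/- macrophages, from the fit of all 20 libraries (circles) and, for Mcu-/-, without untreated replicate 4 (triangles). Bars are 95% intervals. Tlr2 lies at 2.07 in WT and 2.84 in Mcu-/-, and the bars of Tlr1 and Card9 shorten without replicate 4.

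Mcu-/- macrophages responded to zymosan with the same 6 genes called higher. Against Mcu-/- untreated cells, Malt1 rose 9.85-fold, Tlr2 7.16-fold, Cd14 6.07-fold, Myd88 2.92-fold, Bcl10 2.79-fold and Syk 1.89-fold. Card9 fell 2.15-fold, and Tlr6 was called lower at a log2 of −0.14 (SE 0.063, adjusted p = 0.0487 in edgeR). Of all genes tested, 34.3% were called higher and 39.4% lower. Without replicate 4 the Tlr6 value was −0.11 (SE 0.072, adjusted p = 0.157 in edgeR) and not called, whereas Tlr1, at −0.35 (SE 0.18, adjusted p = 0.0899 in edgeR) with all libraries, was called lower at −0.57 (SE 0.043, adjusted p = 5.25e-15 in edgeR). Without replicate 4, 42.4% of all genes were called lower.

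Whether the response differed between genotypes was tested directly, as the difference of the log2 fold changes, Mcu-/- minus WT. It was called for 3 members, all in the direction of a larger rise in Mcu-/-, with 15.2% of all genes called in that direction. Tlr2 rose more by 0.77 (SE 0.11, adjusted p = 2.90e-05 in edgeR), Cd14 by 0.28 (SE 0.082, adjusted p = 0.0132 in edgeR) and Bcl10 by 0.22 (SE 0.063, adjusted p = 0.0116 in edgeR). For Malt1, Myd88, Syk and Tlr6 the test was not passed, and the 95% intervals of the difference were −0.086 to 0.29, −0.021 to 0.20, −0.22 to 0.029 and −0.32 to 0.0078. Replicate 4 decided the other 2 genes. With it, Tlr1 was at −0.60 (SE 0.24, adjusted p = 0.0587 in edgeR) and Card9 at −0.23 (SE 0.28, adjusted p = 0.553 in edgeR). Without it, Tlr1 was at −0.82 (SE 0.055, adjusted p = 5.03e-16 in edgeR) and Card9 at −0.47 (SE 0.083, adjusted p = 6.67e-06 in edgeR), both called, with 29.3% of all genes then called lower. Against the Mcu-/- zymosan mean, replicate 4 itself was at a log2 of −0.64 for Tlr1 and −0.048 for Card9. Replicates 1 to 3 were above that mean for both genes. The sign of the Tlr1 change and the fall of Card9 in Mcu-/- therefore depend on which untreated libraries serve as reference. Against the same mean, replicate 4 was at −1.36 for Bcl10, −2.81 for Cd14 and −3.17 for Tlr2. The WT rises of these genes were 1.26, 2.32 and 2.07, so with replicate 4 as reference the Bcl10 rise was close to that of WT.

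After zymosan, Mcu-/- macrophages had more Tlr2, Cd14 and Bcl10 RNA than WT and less Tlr1, Card9, Syk and Tlr6 RNA. Of all genes tested, 31.8% were called higher and 30.3% lower. Tlr2 was at 749, 779.5 and 773 CPM in the Mcu-/- libraries, above each of the 5 WT libraries, whose highest was 548 CPM. This was a log2 difference of 0.54 (SE 0.075, adjusted p = 1.05e-05 in edgeR). Cd14 was at 1333, 1423 and 1412 CPM, and Bcl10 at 127, 123 and 129 CPM, again above all 5 WT libraries, as were 33.1% of all genes tested. Their log2 differences were 0.34 (SE 0.058, adjusted p = 7.04e-05 in edgeR) and 0.25 (SE 0.045, adjusted p = 1.27e-04 in edgeR).

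Tlr1 showed the largest difference of the members and the opposite sign. It was at 101, 97.5 and 96.1 CPM in Mcu-/- zymosan, against 184 to 194 CPM in WT zymosan and 155 to 163 CPM in WT untreated. The Mcu-/- libraries were thus below both WT groups, and 30.9% of all genes lay below every WT zymosan library without overlap. Tlr1 was 1.93-fold lower than in WT zymosan, a log2 difference of −0.95 (SE 0.18, adjusted p = 1.73e-04 in edgeR). Card9 was at 15.1, 16.0 and 15.3 CPM, against 21.1 to 24.7 CPM in WT zymosan, a log2 difference of −0.58 (SE 0.21, adjusted p = 0.0223 in edgeR). The Card9 call was lost without Mcu-/- zymosan library 3 (adjusted p = 0.0621) or library 5 (adjusted p = 0.0615). Syk was lower by a small amount, −0.14 (SE 0.045, adjusted p = 0.0139 in edgeR), with libraries at 928, 944 and 973 CPM, a call that was lost without Mcu-/- zymosan library 3 (adjusted p = 0.0601). Both calls were kept without Mcu-/- untreated replicate 4, a library of neither group, when 33.7% of all genes were called lower. Card9 was then at −0.58 (SE 0.065, adjusted p = 3.64e-10 in edgeR) and Syk at −0.14 (SE 0.031, adjusted p = 1.76e-04 in edgeR). Tlr6 was at 15.9, 14.5 and 15.7 CPM, and its libraries overlapped those of WT zymosan. Its log2 difference of −0.15 (SE 0.061, adjusted p = 0.0375 in edgeR) lost its call in several alternatives. Malt1, at 164, 149 and 155 CPM, just missed the threshold with a log2 difference of 0.15 (SE 0.066, adjusted p = 0.0501 in edgeR) and passed it without replicate 4, at 0.15 (SE 0.044, adjusted p = 0.00205 in edgeR), when 36.4% of all genes were called higher. Myd88 was at 227, 245 and 235 CPM and was not called (0.058 (SE 0.040, adjusted p = 0.218 in edgeR), 95% interval −0.021 to 0.14).

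Marker sums also differed between Mcu-/- zymosan and WT zymosan, in both directions. Macrophage markers, led by Lyz2, were lower, at 8804 to 9070 against 14120 to 14433 CPM. B cell markers were lower too, at 13.0 to 13.6 against 30.8 to 37.4 CPM. Stromal markers were higher, at 44.0 to 52.3 against 4.66 to 6.63 CPM. T cell markers were also higher, at 3.16 to 3.65 against 0.918 to 1.82 CPM, and all of them but Cd4 were under 1 CPM in both groups. The part of these markers in the differences of the members was not tested. In bulk RNA, fewer macrophages and less RNA of a gene per macrophage cannot be told apart.

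**Figure D3:**
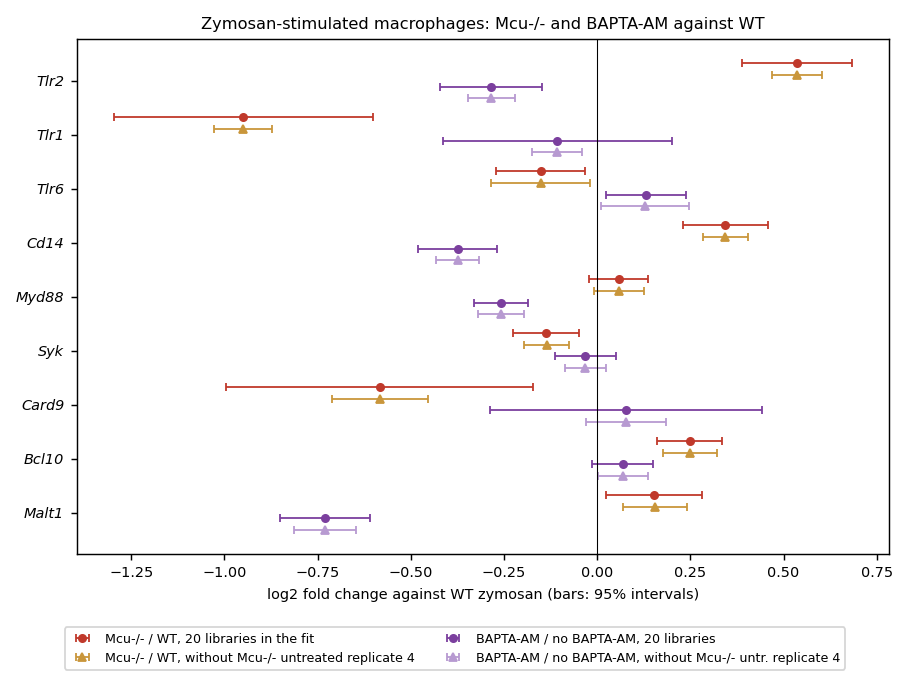
Log2 fold change against WT zymosan (x axis) for each gene (y axis) of Mcu-/- zymosan and of BAPTA-AM loaded WT zymosan macrophages, with all 20 libraries in the fit (circles) and without Mcu-/- untreated replicate 4 (triangles). Bars are 95% intervals. Tlr2 and Cd14 lie to the right in Mcu-/- and to the left with BAPTA-AM, and Malt1 is farthest to the left with BAPTA-AM.

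BAPTA-AM loading was compared with unloaded WT macrophages, both given zymosan. Loaded cells had less Malt1, Cd14, Tlr2 and Myd88 RNA, with 6.33% of all genes tested called lower and 6.43% higher. No member was called higher by edgeR or DESeq2, and at an unadjusted p under 0.05 edgeR had 1 member higher (Tlr6) and DESeq2 had 0. In edgeR, 2981 of the 11707 genes tested had an unadjusted p under 0.05, in either direction. Malt1 was the member with the largest difference. Its libraries were at 88.1, 83.0, 87.7 and 79.4 CPM, below the lowest unloaded library at 132 CPM, a 1.66-fold lower level and a log2 difference of −0.73 (SE 0.062, adjusted p = 2.86e-07 in edgeR). Cd14 was at 863, 831, 847 and 838 CPM, against 1071 to 1117 CPM unloaded, a log2 difference of −0.37 (SE 0.054, adjusted p = 1.16e-04 in edgeR). Tlr2 was at 456, 444, 403 and 433 CPM, against 491 to 548 CPM, a log2 difference of −0.29 (SE 0.070, adjusted p = 0.0103 in edgeR). Myd88 was at 186, 189.9, 191 and 189 CPM, against 217 to 239 CPM, a log2 difference of −0.26 (SE 0.037, adjusted p = 9.99e-05 in edgeR). For all 4 genes no loaded library overlapped an unloaded one, which over all genes was so for 13.2% in the lower direction.

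Syk and Bcl10, which also rose with zymosan, were not called. Syk was at 1017, 1048, 1019 and 996 CPM and its 95% interval ran from −0.11 to 0.049 on the log2 scale. Bcl10 was at 114, 111, 107 and 113 CPM, with an interval from −0.013 to 0.15. Card9, at 23.8, 26.6, 23.0 and 24.3 CPM, had an interval from −0.29 to 0.44, and Tlr6, at 18.4, 19.2, 19.8 and 17.5 CPM, one from 0.023 to 0.24 with an adjusted p of 0.136. The width for Card9 came with Mcu-/- untreated replicate 4, a library of neither group. Without it, Card9 was at 0.078 (SE 0.055, adjusted p = 0.303 in edgeR). Tlr1 was at 183, 169, 177 and 176 CPM, a log2 difference of −0.11 (SE 0.16, adjusted p = 0.756 in edgeR) that was called without replicate 4, at −0.11 (SE 0.034, adjusted p = 0.0130 in edgeR). With replicate 4 left out, 16.5% of all genes were called lower in this comparison.

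Loaded cells still responded to zymosan. Against WT untreated cells, Malt1 was 5.53-fold higher, Cd14 3.86-fold, Tlr2 3.44-fold, Bcl10 2.50-fold, Myd88 2.29-fold and Syk 1.98-fold, and Card9 was 1.74-fold lower. Tlr6 was also called, at a log2 of 0.14 (SE 0.058, adjusted p = 0.0346 in edgeR), but the libraries overlapped, the call was lost in 7 of the alternatives (adjusted p = 0.0573 to 0.106), and on library totals Tlr6 was lower, at −0.29. Tlr1 was not called, at 0.15 (SE 0.16, adjusted p = 0.458 in edgeR), but was called without replicate 4, at 0.15 (SE 0.036, adjusted p = 4.18e-04 in edgeR), when 36.7% of all genes were called higher. On library totals it was lower, at −0.29. Of all genes, 31.9% were called higher and 34.2% lower. This comparison shares the WT untreated libraries with that of unloaded cells, and the 2 are not independent.

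Set side by side, Tlr2 and Cd14 were higher than WT zymosan in Mcu-/- and lower with BAPTA-AM. Both comparisons share the WT zymosan libraries. With all 20 libraries in the fit, Malt1 and Myd88 were called with BAPTA-AM and not in Mcu-/-. Bcl10, Tlr1, Card9, Syk and Tlr6 were called in Mcu-/- and not with BAPTA-AM. Without Mcu-/- untreated replicate 4, Malt1 was also called in Mcu-/- and Tlr1 also with BAPTA-AM. The Card9, Syk and Tlr6 calls in Mcu-/- were lost in some alternatives. The difference between the 2 contrasts was not tested.

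Without zymosan, none of the 9 members was called between Mcu-/- and WT with all 20 libraries, and 0.350% of all genes were called by edgeR. At an unadjusted p under 0.05, edgeR had 0 members higher and 2 lower (Tlr1 and Tlr2), and DESeq2 called 0 members after adjustment. Over all 11707 genes tested, 1743 had an unadjusted p under 0.05 in edgeR, and DESeq2 called 112 after adjustment. Tlr1 and Card9 show how far replicate 4 stood from the rest. Tlr1 was at 135, 156 and 146 CPM in Mcu-/- untreated replicates 1 to 3 and at 63.2 CPM in replicate 4. Card9 was at 37.8, 40.3 and 39.9 CPM in replicates 1 to 3 and at 14.95 CPM in replicate 4. Both values of replicate 4 lay below every Mcu-/- zymosan library, that of Card9 only just. Tlr2 was at 110.4, 117 and 115 CPM and at 85.3 CPM, and Cd14 at 236, 241 and 239.8 CPM and at 198 CPM. These 2 genes were lower in replicate 4, the direction opposite to zymosan. Malt1 (14.0 CPM), Myd88 (78.3 CPM), Bcl10 (49.2 CPM) and Syk (532 CPM) were near the untreated level in replicate 4. The members of this library thus moved in different ways, and what sets it apart was not tested.

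In replicates 1 to 3 alone, the members were close to WT, and 3 small differences were called, with 1.53% of all genes called higher and 1.83% lower. Cd14 was higher by 0.12 (SE 0.035, adjusted p = 0.0362 in edgeR), and Tlr1 and Tlr2 were lower, at −0.13 (SE 0.038, adjusted p = 0.0496 in edgeR) and −0.14 (SE 0.040, adjusted p = 0.0356 in edgeR). The lower Tlr2 of untreated Mcu-/- cells and the higher Tlr2 of Mcu-/- cells given zymosan enter the difference of responses together, which was 0.68 (SE 0.053, adjusted p = 3.92e-14 in edgeR) without replicate 4.

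**Figure D4:**
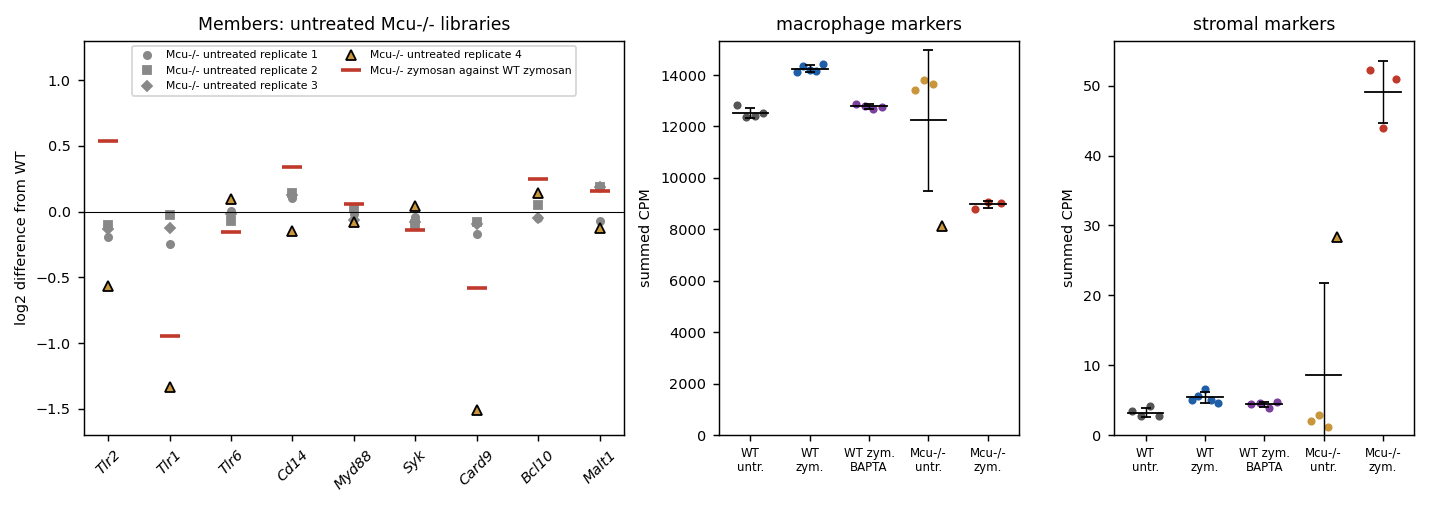
Left, log2 difference of each Mcu-/- untreated library from the WT untreated mean (y axis) for each gene (x axis), with the Mcu-/- against WT difference after zymosan as red bars. Middle and right, summed CPM of 6 macrophage and 5 stromal markers by library and group, with means ± SD and replicate 4 as a triangle. Replicate 4 lies at 8118 CPM of macrophage markers and 28.3 CPM of stromal markers, near Mcu-/- zymosan rather than replicates 1 to 3.

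Because partners are read within 1 library, their ratio does not depend on the scaling of that library. Ratios were taken of CPM per kb, and were added after the values had been seen. Tlr1 to Tlr2 was 1.14 ± 0.0307 in WT untreated (n = 4), 0.324 ± 0.0177 in WT zymosan (n = 5), 0.367 ± 0.0220 with BAPTA-AM (n = 4) and 0.116 ± 0.00558 in Mcu-/- zymosan (n = 3). In Mcu-/- untreated it was 1.15 ± 0.0501 in replicates 1 to 3 and 0.668 in replicate 4. So Tlr1 RNA was about level with Tlr2 RNA at rest and a small part of it after zymosan, smallest in Mcu-/- cells. Tlr6 to Tlr2 was 0.109 ± 0.00692 in WT untreated, 0.0262 ± 0.00178 in WT zymosan, 0.0350 ± 0.00326 with BAPTA-AM and 0.0162 ± 0.00107 in Mcu-/- zymosan. Both partners of TLR2 thus became scarcer relative to it, and the 3 zymosan groups did not overlap in the Tlr6 ratio.

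Card9 to Bcl10 was 1.91 ± 0.0553 in WT untreated and 0.434 ± 0.0283 in WT zymosan. It was 0.436 ± 0.0271 with BAPTA-AM, which overlaps WT zymosan, and 0.244 ± 0.0133 in Mcu-/- zymosan, which does not. Mcu-/- untreated replicates 1 to 3 were at 1.78 ± 0.0609 and replicate 4 was at 0.605. Malt1 to Bcl10 was 0.0868 ± 0.00228 in WT untreated and 0.334 ± 0.0276 in WT zymosan. Here BAPTA-AM separated the groups, at 0.192 ± 0.0120, while Mcu-/- zymosan, at 0.313 ± 0.0113, overlapped WT zymosan.

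**Figure D5:**
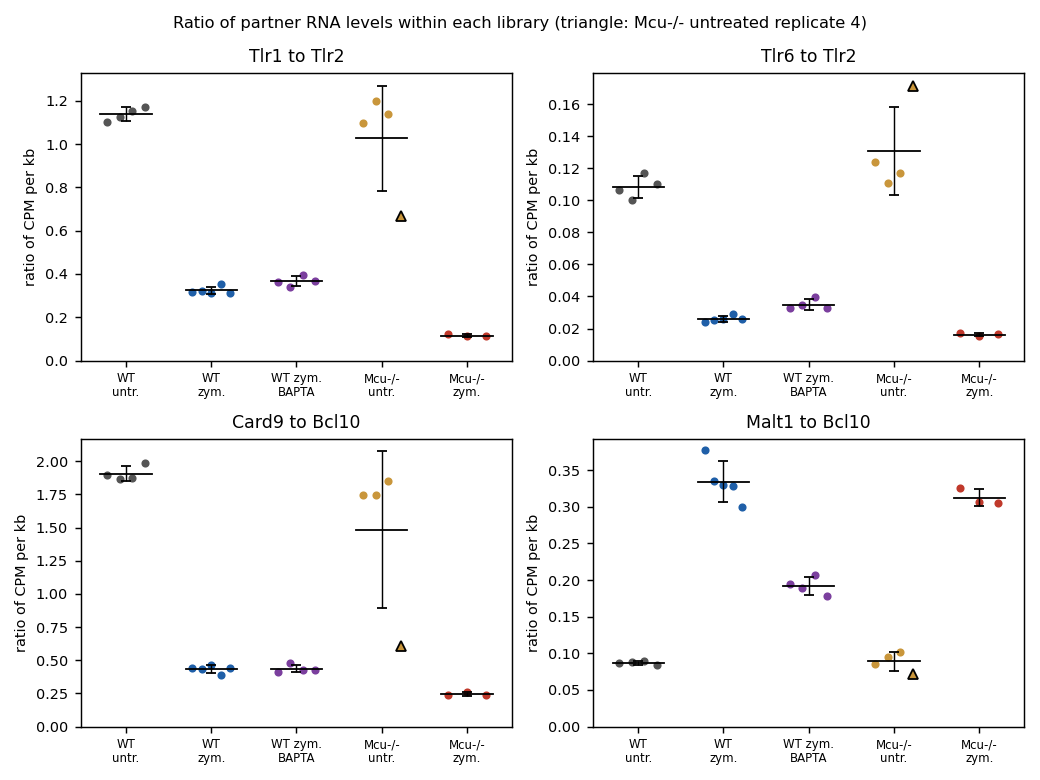
Ratio of CPM per kb between partner genes (y axes, linear, from 0) in each library, by group (x axes). Points are libraries, the triangle is Mcu-/- untreated replicate 4, and lines and bars are means ± SD. Tlr1 to Tlr2 falls from 1.14 in WT untreated to 0.324 in WT zymosan and 0.116 in Mcu-/- zymosan, and Malt1 to Bcl10 is 0.334 in WT zymosan and 0.192 with BAPTA-AM.

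The pathway around the members was followed in 4 lists, whose counts stand beside the 32.4% higher and 36.8% lower of all genes with zymosan in WT, and the 31.8% higher and 30.3% lower of all genes between Mcu-/- and WT after zymosan. Of 25 other pattern receptors and their helpers tested, 16 were called higher and 2 lower with zymosan in WT (median log2 0.35). Clec4e, the C-type lectin Mincle, went from 9.74 to 614 CPM, higher by 5.98 on the log2 scale (edgeR adjusted p = 1.50e-17). The endosomal nucleic acid receptors Tlr7 and Tlr3 rose by 1.85 and 1.83. Between Mcu-/- and WT after zymosan, 11 were called higher and 9 lower (median 0.087). Tlr13 and Tlr3 were higher by 2.26 and 1.87, and Clec4n, the C-type lectin Dectin-2, was lower at −1.81. These 3 genes varied widely among untreated Mcu-/- libraries, replicate 4 included, at 211 ± 146, 9.77 ± 6.12 and 12.4 ± 4.57 CPM (mean ± SD). In untreated WT they were at 152 ± 1.12, 6.27 ± 0.758 and 14.8 ± 0.587 CPM.

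Of the 28 genes of the SYK branch, 8 were called higher and 14 lower with zymosan in WT (median −0.15), where 32.4% and 36.8% of all genes were called, so the share called higher was near that of all genes. Trim62, a ubiquitin ligase that acts on CARD9, fell from 13.3 to 0.795 CPM, at −4.05, as Card9 itself fell. The kinase Src rose by 3.34 and the adaptor Lcp2 (SLP-76) by 2.21. In Mcu-/- against WT zymosan, 10 were called higher and 14 lower (median −0.21), with the kinase Fgr at −2.85, the kinase subunit Pik3cd at −1.43 and the IP3 receptor Itpr3, a Ca2+ release channel, at 1.49. In untreated Mcu-/- cells, replicate 4 included, these 3 genes were at 26.4 ± 12.1, 126 ± 43.9 and 82.7 ± 35.1 CPM (mean ± SD). Untreated WT cells had 39.0 ± 2.21, 138 ± 6.33 and 74.8 ± 3.39 CPM. Of 25 genes of the MyD88 branch, 16 were called higher and 5 lower with zymosan in WT (median 0.46). The ubiquitin ligase Peli1 rose by 3.77 and Rnf31 (HOIP) by 2.16, and Tab1, a subunit of the TAK1 kinase complex, was lower at −2.48. In Mcu-/- against WT, 7 were called in each direction (median −0.039), near the 31.8% and 30.3% of all genes. Ikbkg (NEMO) and Irak2 were higher, by 1.65 and 0.77, and Tnip2 was lower at −0.92. In untreated Mcu-/- cells, replicate 4 included, Ikbkg and Irak2 were at 74.6 ± 44.6 and 56.9 ± 31.9 CPM, and Tnip2 at 25.1 ± 2.57 CPM. In untreated WT they were at 53.3 ± 1.44, 44.0 ± 0.988 and 27.4 ± 1.61 CPM.

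Of 22 genes that restrain these routes, 14 were called higher and 6 lower with zymosan in WT (median 0.77). Socs1 and Socs3, suppressors of cytokine signaling, rose by 7.43 and 6.66, and Tnfaip3 (A20), a ubiquitin-editing enzyme, by 5.94. In Mcu-/- against WT zymosan, 2 were called higher and 7 lower (median −0.064), where 31.8% and 30.3% of all genes were called. Without Mcu-/- untreated replicate 4 these counts were 6 and 9, beside 36.4% and 33.7% of all genes. Rubcn was higher by 1.04, and Dok3, an adaptor, and Zc3h12a (Regnase-1), an RNase, were lower, at −1.90 and −0.74.

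With BAPTA-AM against WT zymosan, where 6.43% of all genes were called higher and 6.33% lower, 1 receptor was called higher and 2 lower, 3 and 5 of the SYK branch, 2 and 3 of the MyD88 branch, and 1 and 4 of the restraining genes. These counts moved with Mcu-/- untreated replicate 4, a library of neither group compared. Without it, 15.3% of all genes were called higher and 16.5% lower, and the lists had 2 and 15 receptors, 4 and 15 of the SYK branch, 5 and 3 of the MyD88 branch, and 3 and 11 of the restraining genes. In untreated Mcu-/- against WT, none of the 100 genes tested in the 4 lists was called by edgeR with all 20 libraries. Of these 100, 25 had an unadjusted p under 0.05 and DESeq2 called 2. Over all 11707 genes tested, 1743 had an unadjusted p under 0.05 in edgeR and DESeq2 called 112. Without replicate 4, edgeR called 9 of the 100, of which 2 were higher and 7 lower, beside 1.53% and 1.83% of all genes.

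The genes whose log2 CPM followed Tlr2 most closely over the 20 libraries were Swap70 (Pearson r = 0.997), Rnd3 (0.996), Mark2 (0.994), Fgl2 (0.994) and Cited2 (0.993), out of 7656 genes whose mean reached 10 CPM. The libraries share the difference between untreated and stimulated cells, so these values describe the order of groups.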

How the data were processed

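RNA-seq counts of 20 mouse BMDM libraries were used. Reads were paired-end. The authors removed adaptors (cutadapt), mapped to mm10 (STAR) and summed reads over genes (HTSeq), and the table deposited by the authors holds these counts without normalization. FastQC and MultiQC are also named in the submitters' processing notes, and DESeq2 served for the study's own tests. Versions are not given in the sources used here. Total counts were 14.4 to 24.0 M per library. Columns of the Mcu-/- zymosan group are numbered 3, 4 and 5, but titles of the samples run from 1 to 3, and the column numbers are used here.

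R 4.3.3 was used with edgeR 4.0.16 and DESeq2 1.42.0. The filterByExpr function, run by group, left 11707 of 21963 entries, which were scaled with TMM. The quasi-likelihood fit of edgeR had all libraries, a coefficient for each group and no covariate. A Benjamini-Hochberg adjusted p under 0.05 over all genes tested made a call. SE is the absolute log2 fold change divided by the square root of the F statistic, and 95% intervals are normal intervals from it. Exact permutation tests used log2(CPM + 0.5) and are two-sided and unadjusted. The fit was tested on simulated data. Alternatives were size factors and the Wald test of DESeq2, library totals, no low filter, at least 10 counts in every library, each comparison fitted on its own groups, calls only from an absolute log2 of 1, a replicate block, and each library left out.

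The members, the 4 pathway lists and the marker lists were chosen with earlier results of these data known. Named genes are all members, Mcu, the 5 genes most correlated with Tlr2, and from each list the 3 largest called changes with zymosan in WT and the 3 largest between Mcu-/- and WT zymosan, if the higher group averaged 10 CPM or more. Exon unions and overlaps came from GENCODE M21, and promoter windows from RefSeq.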

Additional observations from a re-analysis of the deposited data

Results flagged for a closer look

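In Mcu-/- untreated cells, Cd14 at 198 CPM and Card9 at 14.95 CPM in replicate 4 lay farther below the other 3 libraries than Dixon's 95% limit allows for 4 samples. Over the members, 36 sets of 4 or 5 libraries were tested in this way and 2 passed, both in replicate 4, where chance alone would pass about 1 in 20. Tlr1 in the same library, at 63.2 CPM, did not pass. The zymosan response was larger in Mcu-/- than in WT macrophages for Tlr2, by 0.77 on the log2 scale (edgeR adjusted p = 2.90e-05), for Cd14, by 0.28 (edgeR adjusted p = 0.0132), and for Bcl10, by 0.22 (edgeR adjusted p = 0.0116). The group means gave the same direction, with Tlr2 going from 126 to 529 CPM in WT and from 107 to 767 CPM in Mcu-/-. For Bcl10, untreated replicate 4 alone was at a log2 of −1.36 against the Mcu-/- zymosan mean. With it as reference, the Bcl10 rise was close to the 1.26 of WT. Causes were not tested.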

How the results depend on the processing

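With a minimum absolute log2 fold change of 1, members called lower were 0 with zymosan in WT, 1 in Mcu-/-, 0 with BAPTA-AM against either group and 0 between Mcu-/- and WT zymosan, where 0 were called higher, as also in the difference of responses; genes called were 3016, 3600, 1109 (difference), 1815 (Mcu-/- against WT zymosan), 78 and 2797 (BAPTA-AM against zymosan and untreated) and 20 (untreated). Members called lower in Mcu-/- with zymosan were 1 with DESeq2's size factors, its Wald test and the groups alone, the change being that of Tlr6. The Wald test called 1 member lower in the difference of responses (Tlr1) and 112 genes between untreated groups, where at least 10 counts in every library gave 25 genes and the groups alone 4. The groups alone gave 3529 genes for BAPTA-AM. Leaving out 1 library at a time, members called lower ranged over 1 to 2 in Mcu-/- with zymosan, 0 to 2 in the difference of responses, 2 to 4 between Mcu-/- and WT zymosan and 0 to 2 between untreated groups, where 0 to 1 were called higher. Genes called ranged over 22 to 391 untreated, 3414 to 7039 in the difference and 1036 to 3712 for BAPTA-AM. The highest of each came without Mcu-/- untreated replicate 4.

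Directions turned with the scaling for Tlr1 and Tlr6, also where the main fit gave 0.25 (Tlr1 with zymosan in WT). Otherwise they turned for values near 0. On library totals, as differences of mean log2(CPM + 0.5), Tlr1 was at −0.24 and Tlr6 at −0.47 with zymosan in WT, −0.29 and −0.28 with BAPTA-AM against untreated, Tlr6 at −0.017 between untreated groups, and Syk at 0.030 for BAPTA-AM. Tlr6 with zymosan in WT was −0.0035 with at least 10 counts and −0.0078 to 0.045 with 1 library left out. Between untreated groups Tlr6 was −0.00052 with DESeq2's size factors, −0.0030 with at least 10 counts, −0.0016 with the Wald test, −0.0039 with the groups alone and −0.028 to 0.036 with 1 library left out, and Bcl10 −0.016 (without replicate 4) to 0.050. Of the 567 settings tried for the counts of calls, 521 gave a count within 1.5 times of that reported.

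Over 33 pairs of libraries with the same column number, the correlation of deviations from group means was −0.088 to 0.085, and 0 exceeded 0.1. This gave no sign of pairing but cannot exclude it, since the column numbers of Mcu-/- zymosan do not match the sample titles. With the replicate number as a block, members called were 6 higher and 1 lower with zymosan in WT, and 4 higher and 3 lower between Mcu-/- and WT zymosan, where Malt1 (0.18, adjusted p = 0.0236) gained and Card9 (−0.52, adjusted p = 0.0562) lost its call; 7899 and 6700 genes were called.

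The lowest count of any member was 255, and whether depth limited the calls was not tested. Group means rest on 3 to 5 libraries a group, while the spread behind the intervals was estimated from all 20 libraries in the fit.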
